A study of Homo sapiens with 2 samples.

Results

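The transcripts of 10 plasma carrier and binding proteins made by hepatocytes were examined: albumin (ALB), transferrin (TF), transthyretin (TTR), the fetuins A and B (AHSG and FETUB), the alpha-1-microglobulin and bikunin precursor (AMBP), retinol binding protein (RBP4), the vitamin D binding protein (GC), alpha-1-B glycoprotein (A1BG) and alpha-2-macroglobulin (A2M). The members are a list of names, with no measured value in the rule, drawn up with earlier results of these data known, and all 10 were found among the 24991 gene names listed in both libraries. The RNA came from PLC, an established line of human liver cancer cells, for which the labels give a medium with 25 mM glucose and 10% serum. One group (EV) carried the empty lentiviral vector and the other (PRSS35) carried the same vector with the coding sequence of PRSS35, a secreted protease, and both were lentivirally infected cells selected with puromycin; no further treatment is given in the labels. The study used these RNA profiles beside a comparison of proteins in the culture medium, to ask whether a secreted protein was changed at its transcript. Each group has 1 library, so differences cannot be set against a spread between cultures, and no p-value appears here.

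Hepatocytes release most of the carrier proteins of blood plasma. Albumin binds fatty acids, metals and drugs, transferrin carries iron, RBP4 carries retinol and travels bound to transthyretin, which also carries thyroid hormone, and the GC protein carries vitamin D sterols. The fetuins are cystatin-type proteins that bind mineral or inhibit proteases, AMBP is cut into a haem-binding lipocalin and the protease inhibitor bikunin, and A2M traps proteases of many classes. A1BG is an immunoglobulin-type plasma protein. All of them enter the secretory pathway through a signal peptide, and in adult liver albumin is among the most abundant transcripts.

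The values are FPKM (mapped fragments, adjusted for transcript length and library depth), each with the lower and upper bound that the authors' software put around it. These bounds cover the error of counting and of assigning fragments inside 1 library, and not the variation between cultures. A log2 difference is that of PRSS35 over EV after adding 1 FPKM to each value, a scale that understates changes of low genes, or as the plain ratio of both FPKM values with an interval carried over from the bounds. Names whose FPKM averaged 1 or more across the 2 libraries are called expressed, and 10133 names passed this floor. Among loci whose bounds corresponded to a whole number of fragments within 0.01, and which both libraries shared (190 loci), 1 fragment stood for the same FPKM (median ratio 1.00, EV over PRSS35). By this measure the depths of the libraries were alike; the total count of fragments is not used here. The labels were checked first on PRSS35 itself, which had an FPKM of 0.643 (bounds 0.445 to 0.841) in EV and 1836 (bounds 1759 to 1912) in PRSS35 cells.

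The 10 genes are spread over the genome, with AHSG and FETUB as immediate neighbours. Coordinates are those of the deposited loci on hg19. ALB lay on chromosome 4 from 74269972 to 74287129, next to the related gene AFP, and GC lay on the same chromosome from 72607411 to 72671237. TF lay on chromosome 3 from 133464977 to 133497850. Further along that chromosome, AHSG lay from 186330850 to 186339107 and FETUB, the next named locus, from 186358149 to 186370797. TTR lay on chromosome 18 from 29171730 to 29178986, and its partner RBP4 on chromosome 10 from 95351593 to 95360993. AMBP lay on chromosome 9 from 116822408 to 116840752, A1BG on chromosome 19 from 58858172 to 58864865, and A2M on chromosome 12 from 9220304 to 9268558. In GENCODE, ALB, TF, TTR, AHSG and FETUB are on the plus strand and the other five on the minus strand. The encoded precursors range from 147 residues for TTR, with 4 exons, to 1474 residues for A2M, with 36 exons, and ALB has 609 residues and 15 exons. No deposited locus joined a member with a neighbour, and the antisense genes A1BG-AS1 and A2M-AS1, the only named loci that overlap a member, were listed at 0 in both libraries. The library kit does not mark strand, so reads of A1BG and A2M cannot be told apart from reads of these antisense partners.

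The promoter sequences of 3 members are shown, because they cover the low transcript whose adult liver level is known to be high (ALB), the second most abundant member (RBP4) and a member with one of the largest differences between the libraries (AHSG). The sequences are from RefSeq (table of build GRCh38.p14) and were each placed on GRCh37 by 1 exact match. Each runs 5′ to 3′ on the gene's strand, starts 250 bases before the RefSeq transcript start and ends before the deposited locus begins. Capitals mark 2 motifs: CCAAT on either strand (ATTGG is CCAAT on the other strand) and the TATA box TATAAA on the gene's strand. The ALB sequence is chr4:74269754-74269971, that of RBP4 is chr10:95360994-95361242 (minus strand), and that of AHSG is chr3:186330599-186330848.
ALB: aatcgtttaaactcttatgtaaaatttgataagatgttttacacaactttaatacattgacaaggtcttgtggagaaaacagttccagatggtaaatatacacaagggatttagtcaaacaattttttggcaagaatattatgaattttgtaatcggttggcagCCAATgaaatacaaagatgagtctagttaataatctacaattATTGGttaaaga
RBP4: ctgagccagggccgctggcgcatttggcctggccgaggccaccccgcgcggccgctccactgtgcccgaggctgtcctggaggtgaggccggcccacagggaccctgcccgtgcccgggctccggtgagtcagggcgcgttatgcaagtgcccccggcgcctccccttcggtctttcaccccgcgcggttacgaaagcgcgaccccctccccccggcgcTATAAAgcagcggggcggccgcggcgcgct
AHSG: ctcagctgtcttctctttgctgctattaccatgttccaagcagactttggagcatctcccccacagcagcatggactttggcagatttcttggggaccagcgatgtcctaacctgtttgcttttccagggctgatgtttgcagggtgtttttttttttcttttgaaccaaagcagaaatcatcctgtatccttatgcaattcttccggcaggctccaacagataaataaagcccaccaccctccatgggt
The ALB sequence held 2 CCAAT matches and no TATAAA, RBP4 held 1 TATAAA, whose first base is at position -31, counting the RefSeq start as position 0, and AHSG held neither. Over all 35116 RefSeq promoters, cut to the 250 bases before the start, 6.80% hold TATAAA and 11240 promoters hold CCAAT. A match describes these letters only and is no measure of binding. The promoter table held 7 of the 10 members, and TTR, GC and A2M were not matched in it.

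In PLC cells, the carrier transcripts ranged from 0 to 2052 FPKM, and the most abundant carrier of adult plasma was not among the high ones. Of the 10 members, 5 (AMBP, RBP4, TF, A1BG and A2M) were above 100 FPKM in both libraries, AHSG lay between, and 4 (ALB, TTR, FETUB and GC) were below 10 FPKM in both. For scale, the median FPKM over the 10133 expressed names was 9.40 in EV and 10.1 in PRSS35. So the word abundant, used for these proteins in plasma, held for 5 of the 10 transcripts here, and FETUB and GC did not reach the floor of a mean FPKM of 1.

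**Figure D1:**
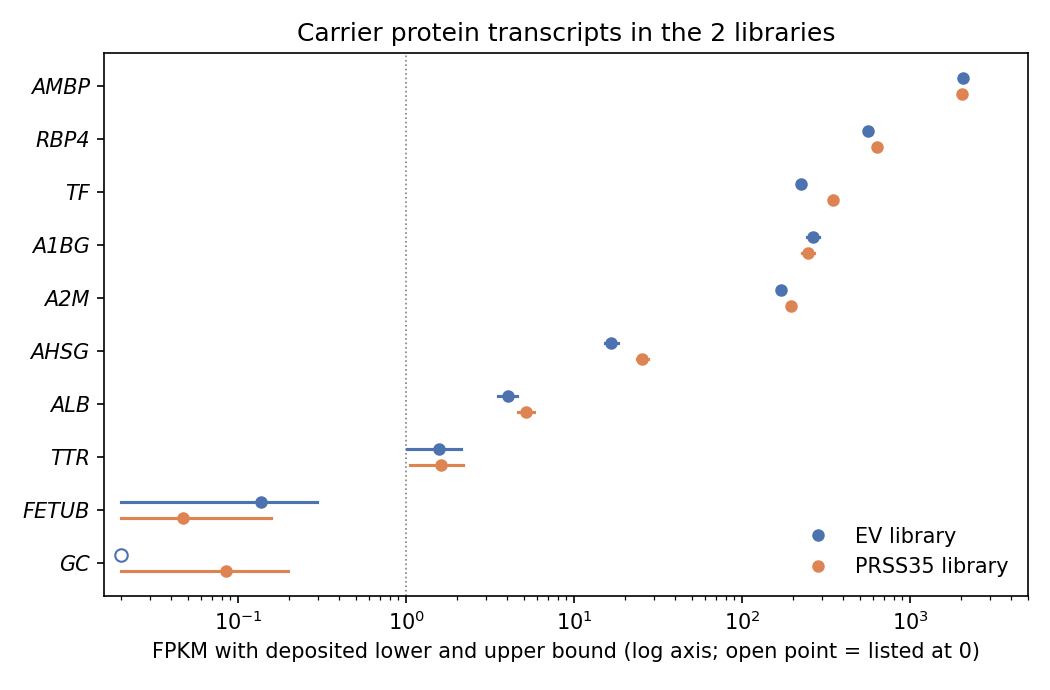
FPKM of each of the 10 members (log axis) in the EV library (blue) and the PRSS35 library (orange), with the deposited lower and upper bounds as bars; the open point is listed at 0, bars that reach 0 are cut at the left edge, and the dotted line marks an FPKM of 1. AMBP is at 2052 and 2032 FPKM, while ALB is at 4.05 and 5.21, TTR at 1.56 and 1.61, and FETUB and GC below 1.

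AMBP had the highest level of the members, at 2052 FPKM (bounds 1966 to 2138) in EV and 2032 (bounds 1947 to 2117) in PRSS35. It ranked 58 and 64 by FPKM among 25567 named loci in EV and 25549 in PRSS35. AMBP alone made up 62.2% of the summed FPKM of the members in EV and 58.2% in PRSS35. RBP4 was the next, at 565.4 FPKM (bounds 539.8 to 591.0) in EV and 635.9 (bounds 607.3 to 664.4) in PRSS35, ranks 239 and 214. Thus 79.3% of the members' FPKM in EV and 76.4% in PRSS35 came from the precursor of bikunin and the retinol carrier.

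Below these, the iron carrier TF, A1BG and the protease trap A2M, lay within a narrow range of each other. TF was at 224.2 FPKM (bounds 214.3 to 234.0) in EV and 348.5 (bounds 333.5 to 363.5) in PRSS35, ranks 651 and 393. A1BG was at 265.8 FPKM (bounds 244.8 to 286.8) in EV and 247.0 (bounds 227.0 to 267.0) in PRSS35, ranks 538 and 573. A2M was at 171.3 FPKM (bounds 163.9 to 178.8) in EV and 195.3 (bounds 186.9 to 203.7) in PRSS35, ranks 850 and 723. TF and A1BG changed places between the libraries, A1BG being 1.19 times TF in EV and TF being 1.41 times A1BG in PRSS35, with bounds that do not overlap within either library.

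AHSG, the carrier of calcium phosphate in plasma, was 10.3 times lower than A2M in EV and 7.67 times lower in PRSS35. Its FPKM was 16.7 (bounds 15.2 to 18.1) in EV and 25.5 (bounds 23.6 to 27.4) in PRSS35, ranks 4051 and 3286. ALB was lower again, at 4.05 FPKM (bounds 3.53 to 4.57) in EV and 5.21 (bounds 4.62 to 5.79) in PRSS35, ranks 7204 and 6740. AMBP exceeded ALB 506.7 times in EV and 390.3 times in PRSS35, and TF exceeded it 55.4 and 66.9 times.

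TTR, which accompanies RBP4 in plasma, was at the edge of the floor, with 1.56 FPKM (bounds 1.01 to 2.11) in EV and 1.61 (bounds 1.05 to 2.18) in PRSS35. Its bounds correspond to about 31.9 fragments in EV and 32.7 in PRSS35, so its value is imprecise. RBP4 was 362.1 times as high as TTR in EV and 394.0 times in PRSS35, although both proteins circulate as 1 complex. FETUB was at 0.138 FPKM (bounds 0 to 0.294) in EV and 0.0471 (bounds 0 to 0.158) in PRSS35. GC was listed at 0 in EV and at 0.0846 FPKM (bounds 0 to 0.198) in PRSS35. The bounds of FETUB reach 0 in both libraries and those of GC in the PRSS35 library, so no ratio between the libraries is given for them, and neither was detectable above its error at this depth. In the order of the levels, only the neighbours FETUB and GC had overlapping bounds, in both libraries.

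**Figure D2:**
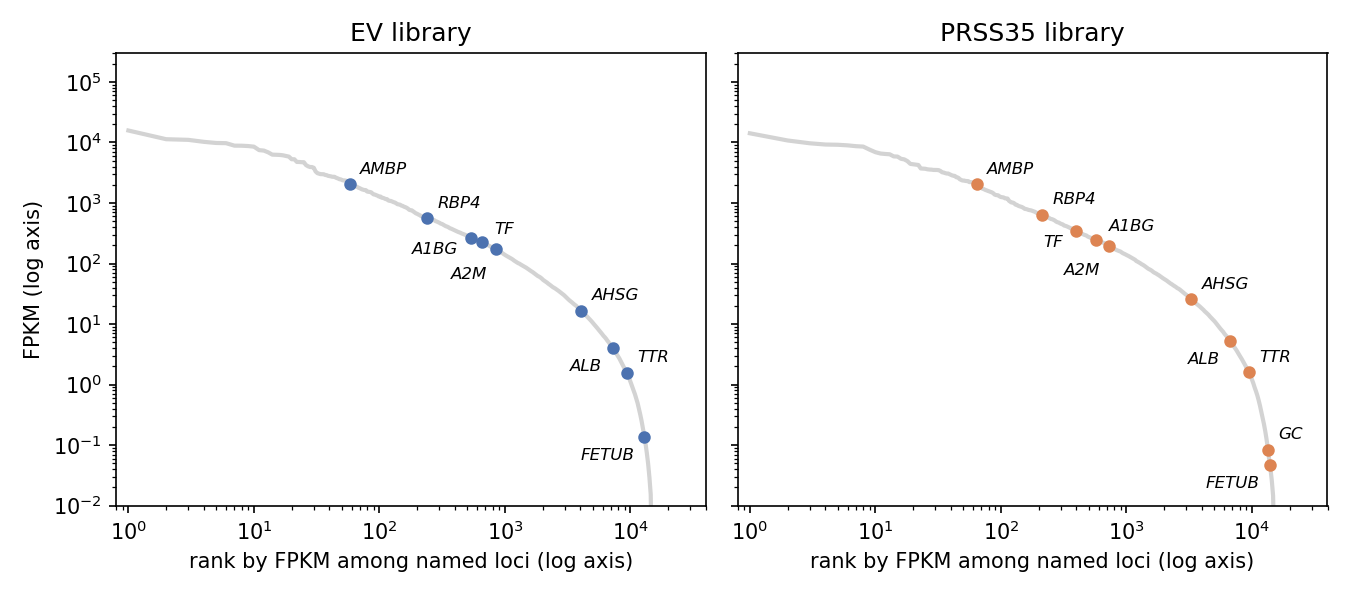
FPKM (log axis) against rank by FPKM among named loci (log axis) in the EV library (left) and the PRSS35 library (right); the grey line is the curve over all named loci and the points are the members above 0. AMBP sits at ranks 58 and 64, ALB at 7204 and 6740, and TF and A1BG change places between the panels.

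Between the libraries, the differences of the members were small, and those with separate bounds were all towards higher values in PRSS35. No member reached 2-fold in either direction, where 1.89% of the expressed names were higher and 1.84% lower by 2-fold. At 1.5-fold on the scale with 1 FPKM added, TF was called higher, beside 4.32% of expressed names, and no member was lower, beside 3.55%. The call of TF held on the deposited scale only narrowly. Its log2 difference was 0.57, short of 1.5-fold, with PRSS35 scaled to the upper quartile of EV or centred on the median change. On the deposited scale AHSG missed the 1.5-fold call through the added FPKM, since its plain ratio was 1.53. Its log2 difference with 0.1 FPKM added was 0.61. With 1 FPKM added and the upper quartile made equal, or after centring, AHSG was at 0.52. The bounds of 5 of the 8 expressed members (TF, AHSG, ALB, A2M and RBP4) lay apart and higher in PRSS35, and none lay apart and lower. Over all expressed names, bounds lay apart and higher for 24.7% and apart and lower for 14.3%. Since bounds are narrower at high levels, the same was also counted among the 1231 names with a mean FPKM of at least 100: there 3 of 5 members were apart and higher and none lower, where 24.6% of these names were higher and 34% lower. The median log2 difference of the 8 expressed members was 0.18, with a range from -0.11 to 0.63, and that of all expressed names was 0.06. These counts describe 1 library against 1, and no statement about the members as a group follows from them.

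TF showed the largest ratio of the members. Its FPKM in PRSS35 was 1.55 times that in EV (interval 1.46 to 1.65), a log2 difference of 0.63, and 96.3% of expressed names had a lower log2 difference. AHSG followed with a ratio of 1.53 (interval 1.36 to 1.71), a log2 difference of 0.58, above 95.6% of expressed names. AHSG is among the secreted proteins that the study listed after using these libraries to leave out those lower at the transcript, so its direction is not independent of that choice. TF and AHSG were also the only members whose bounds stayed apart when the PRSS35 library was scaled to the same upper quartile as EV. Under that scaling 17.8% of expressed names were apart and higher and 19.4% apart and lower.

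ALB, at a level far below these, had a ratio of 1.29 (interval 1.08 to 1.52) and a log2 difference of 0.30, above 84.0% of expressed names. Its bounds in EV end at 4.57 and in PRSS35 begin at 4.62, so they barely parted. A2M had a ratio of 1.14 (interval 1.07 to 1.21) and RBP4 one of 1.12 (interval 1.06 to 1.20), with log2 differences of 0.19 and 0.17. A2M was above 71.3% and RBP4 above 68.0% of expressed names, not far from the middle of all names.

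The other three expressed members did not part. AMBP had a ratio of 0.990 (interval 0.933 to 1.05), the narrowest interval of the members. On the deposited scale this interval leaves no room for a 1.5-fold difference within the error of these libraries. The log2 difference of AMBP was -0.01, and 0.03 when the libraries were scaled to the same sum over named loci. With the sum over all loci made equal it was 0.70, past 1.5-fold with bounds apart and higher, so no direction is given. A1BG had a ratio of 0.929 (interval 0.830 to 1.04), with a log2 difference of -0.11 that became 0.60 with the sum over all loci made equal. TTR had a ratio of 1.03 (interval 0.628 to 1.70), wide enough to include a 1.5-fold difference either way, and its log2 difference of 0.03 was -0.01 after scaling to the upper quartile and -0.03 after centring.

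**Figure D3:**
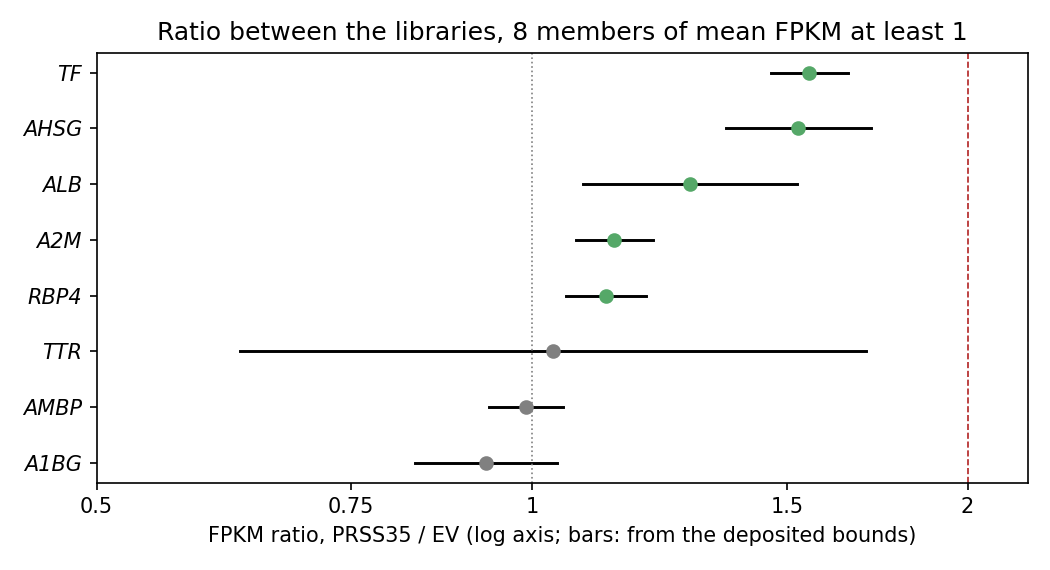
Ratio of FPKM in PRSS35 to that in EV (log axis) for the 8 expressed members, with intervals carried over from the deposited bounds; green points have bounds that do not overlap between the libraries, grey points have bounds that do, and the dotted and dashed lines mark ratios of 1 and 2. TF (1.55) and AHSG (1.53) lie farthest to the right, AMBP (0.990) has the narrowest interval and TTR the widest, and no point reaches 2.

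In sum over the members, 3301 FPKM in EV stood against 3491 in PRSS35, which was 0.385% and 0.420% of the FPKM of all named loci. The difference of 190.0 FPKM was made up mostly of TF (124.3) and RBP4 (70.4), with 23.9 from A2M and 8.80 from AHSG, and with AMBP (-19.8) and A1BG (-18.8) on the other side. ALB, with 1.16 FPKM, added little to it. These differences are on the deposited scale. The scalings described below multiply every PRSS35 value by 0.955, 1.03 or 1.64, so the summed difference and the parts of the members in it shift with the scale.

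The width of the bounds differed between members. AMBP, TF, A2M and RBP4 had bounds of 4.19% to 4.53% of the value on either side in both libraries, close to the median of 4.46% in EV and 4.48% in PRSS35 over loci of at least 100 FPKM that the authors' run had assembled anew. For A1BG this width was 7.90% in EV and 8.09% in PRSS35, for AHSG 8.79% and 7.51%, for ALB 12.8% and 11.2%, and for TTR 35.4% and 35.0%. The loci of 6 members (TF, AHSG, AMBP, RBP4, A1BG and A2M) carried an assembled identifier in both libraries and those of the other four the annotated one in both, so no member was compared across a change of locus type. Of the partners named below, AFP, ITIH2, TFR2, CALR, SEC61B and KRT8 were assembled in only 1 of the libraries, and the part of this change in their differences was not tested.

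The albumin gene family was low in PLC cells apart from its fetal member. AFP, the fetal counterpart of albumin, was at 18.9 FPKM in EV and 17.7 in PRSS35, 4.68 and 3.40 times ALB, with overlapping bounds between the libraries (log2 difference -0.09). AFM, which carries vitamin E, was at 0.0185 in EV and listed at 0 in PRSS35, and GC, the fourth member of the family, was near 0 as given above. In the cystatin-type family, only AHSG passed the floor. Its relatives by position and structure, HRG and KNG1, a kininogen, were below 1 FPKM in both libraries, HRG at 0.147 and 0.166 and KNG1 at 0.136 in EV and 0.493 in PRSS35, with bounds apart and higher for KNG1 and overlapping for HRG.

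The genes listed beside AMBP and A2M were measured unevenly. Bikunin is joined to inter-alpha-inhibitor heavy chains, of which ITIH2 was at 29.2 FPKM in EV and 33.9 in PRSS35 and ITIH1 at a mean of 2.05 FPKM over both libraries, with overlapping bounds. ITIH3 was listed at 0 in both libraries and ITIH4 at 0 and 0.0218, so AMBP exceeded each of these heavy chain transcripts by far. Of this list without A2M, 3 of 6 genes were expressed, 1 (ITIH2) had bounds apart and higher, none lower, and the median log2 difference was 0.07. For this list and the lists and markers below, the shares over all expressed names were 24.7% apart and higher and 14.3% apart and lower as deposited. They were 17.8% and 19.4% with the upper quartile made equal. SERPING1, the C1 inhibitor, is listed here as another protease inhibitor and not as a partner of AMBP or A2M. It had the highest level of the 6, at 85.7 FPKM in EV and 90.1 in PRSS35. PZP, the paralogue next to A2M, was listed at 0 in both libraries.

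Receptors that take up the carriers were expressed at levels from 0 to 666.9 FPKM. ASGR1 and ASGR2, the subunits of the asialoglycoprotein receptor, which clears desialylated plasma glycoproteins, had the highest levels of this list. ASGR1 was at 521.2 FPKM in EV and 666.9 in PRSS35 (log2 difference 0.35), and ASGR2 at 379.9 and 444.0 (0.22), both with bounds apart. FCGRT, the heavy chain of the receptor that rescues albumin from breakdown, was at 121.6 and 111.1, with overlapping bounds. TFRC, the transferrin receptor, was at 35.3 FPKM in EV and 42.7 in PRSS35 (0.27), with bounds apart and higher as for its ligand TF. TFR2, its relative in hepatocytes, was at 0.134 and 0.146. LRP1, which takes up A2M bound to proteases, was at 5.62 and 6.44 (0.17), also apart and higher, but not with the upper quartile made equal. LRP2 and CUBN, the kidney receptors for GC and other carriers, were listed at 0 in both libraries, and STRA6, the receptor for RBP4, was at 0.157 and 0.0451. Of the 15 genes listed, 14 were found and 9 expressed, of which 4 were apart and higher and none lower, with a median log2 difference of 0.16. With the upper quartile made equal these counts were 3 and 1, FCGRT being the lower one.

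Genes that handle the ligands inside the cell showed no 2-fold difference. Of 12 listed, 11 were matched by their own name and 7 were expressed, 2 of them apart and higher and none lower, with a median log2 difference of 0.17. FTL, the light chain of the iron store ferritin, was at 5278 FPKM in EV and 5242 in PRSS35, and DHRS3, a retinal reductase, at 58.0 and 62.3, both with overlapping bounds. DIO3, a deiodinase that inactivates thyroid hormone, was below the floor at 0.749 FPKM in EV and 0.278 in PRSS35, with bounds apart.

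Other plasma carriers held both larger and opposite differences. Of 20 names listed, 19 were found and 15 expressed, 7 of them apart and higher and 2 apart and lower, with a median log2 difference of 0.19 against 0.18 for the members. With the upper quartile made equal, 7 were apart and higher and 4 apart and lower, the 2 added being HPX, a haem carrier, and CLU, an extracellular chaperone. SERPINA1, the elastase inhibitor alpha-1-antitrypsin, was at 2528 FPKM in EV and 4239 in PRSS35 (log2 difference 0.75). It was thus above AMBP in both libraries and differed by more than TF did. SERPINA6, the cortisol carrier, was at 75.9 and 104.5 (0.46), and ORM1, an acid glycoprotein that binds drugs, at 18.6 and 25.9 (0.46), both with bounds apart. ORM1 has the near copy ORM2, at 6.13 and 8.71, and the split of reads between the copies is uncertain. On the other side, APOA1 and APOA2, the main proteins of high density lipoprotein, were apart and lower, APOA1 at 576.2 FPKM in EV and 493.6 in PRSS35 (-0.22) and APOA2 at 218.1 and 178.5 (-0.29); with the sum over all loci made equal these became 0.49 and 0.42. SHBG, the carrier of sex steroids, was listed at 0 in EV and at 4.88 FPKM (bounds 3.93 to 5.84) in PRSS35, the one gene of the list called at 2-fold. An exact 0 can be a failed estimate at a locus, so no fold is given. Haptoglobin (HP), SERPINA7, TCN2 and AZGP1 were listed at 0 in both libraries.

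Hepatocyte transcription factors, several of which are known to act on the albumin and transthyretin promoters, were present. Of 17 listed, 16 were matched by their own name and 14 expressed, 5 apart and higher and 3 apart and lower, with a median log2 difference of 0.06, as for all expressed names; with the upper quartile made equal, 2 were apart and higher, 3 lower, and 7 of the 14 differences were above 0. CEBPA was at 95.7 FPKM in EV and 107.3 in PRSS35 and CEBPB at 93.8 and 108.0, with log2 differences of 0.16 and 0.20; both were apart and higher as deposited but not with the upper quartile made equal. CEBPD was at 19.5 and 26.1 (0.40), also apart. HNF4A was at 41.2 and 47.7 (0.21), apart and higher. DBP, a factor named for binding the albumin promoter, was at 18.5 FPKM in EV and listed at 0 in PRSS35 at an assembled locus, so no fold is given.

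The machinery through which secreted proteins enter and fold in the endoplasmic reticulum held more genes with higher than with lower values in PRSS35, as deposited and with the upper quartile made equal. Of 16 names listed, 14 were found by their own name and all 14 expressed, 9 apart and higher and none lower, beside the 24.7% and 14.3% given for all expressed names. With the upper quartile made equal the counts were again 9 and none, beside 17.8% higher and 19.4% lower of all expressed names. The median log2 difference of 0.26 was above that of the members. SPCS2, a subunit of the signal peptidase, was at 33.0 FPKM in EV and 50.4 in PRSS35 (0.60). CALR, a chaperone of glycoproteins, was at 525.0 and 724.1 (0.46), and SEC61B, a subunit of the translocation channel, at 642.2 and 796.7 (0.31), all with bounds apart.

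**Figure D4:**
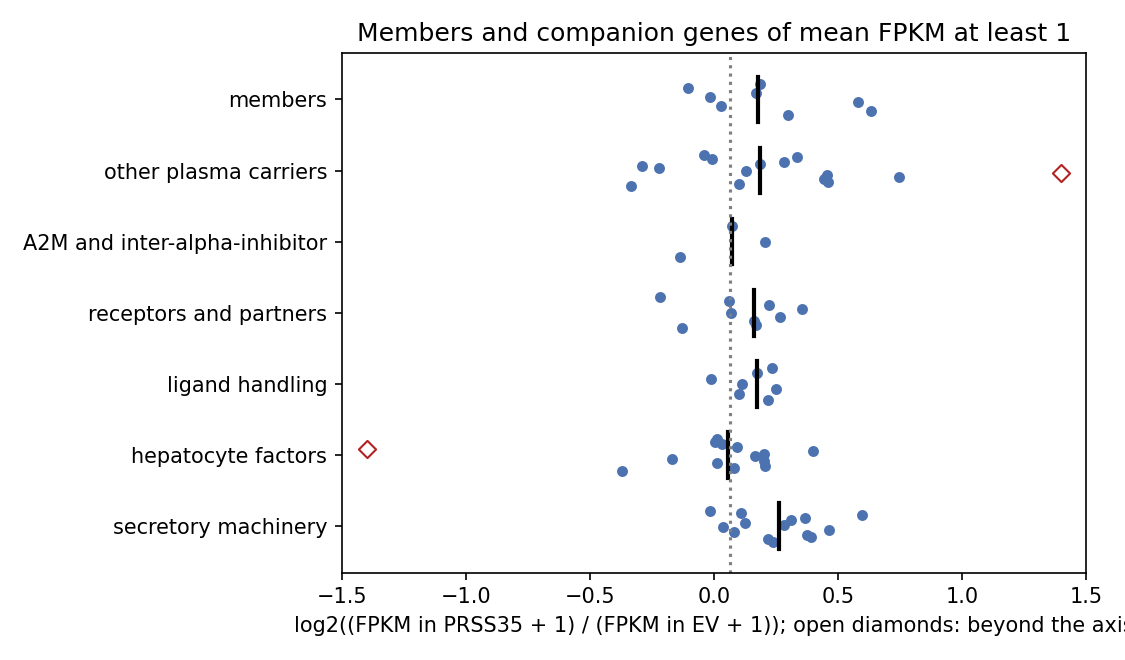
Log2 difference between the libraries, PRSS35 over EV with 1 FPKM added to each, for the expressed members and the expressed genes of 6 lists of partners, 1 point per gene; black bars are the medians of the lists, the dotted line is the median of all expressed names (0.06), and the 2 open diamonds, drawn at the edge, are SHBG, listed at 0 in EV, and DBP, listed at 0 in PRSS35, whose positions are no fold. The members range from -0.11 to 0.63, other plasma carriers lie on both sides of 0, and the secretory machinery has the highest median (0.26).

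The cell type given in the labels was checked against marker genes. All 10 genes listed as hepatocyte lineage markers were expressed, 4 of them apart and higher and 3 apart and lower, with a median log2 difference of 0.01. The lowest was PROX1, at 1.86 FPKM in EV and 1.87 in PRSS35. ALB, TTR and HP, which were low or listed at 0 as given above, are not in this list. The keratins were the highest of the 10. KRT18 was at 2781 FPKM in EV and 2315 in PRSS35 (-0.26, apart and lower) and KRT8 at 2457 and 2344, with overlapping bounds. With the sum over all loci made equal the difference of KRT18 became 0.45. The 2 oncofetal markers, AFP and GPC3, were also expressed, with a median of 0.02. Markers of other cells were low or listed at 0. The summed FPKM was 1.75 in EV and 2.03 in PRSS35 over 5 fibroblast and stellate cell markers (of 6 listed). Of these, PDGFRB was the highest at 1.02 and 1.27, and the only 1 to pass the floor. COL1A1 followed at 0.699 and 0.754, with bounds above 0, and ACTA2 and LRAT were listed at 0. Over 4 endothelial markers the sums were 0.0373 and 0.0307, and KDR was listed at 0. The 4 blood cell markers found (of 5 listed) were listed at 0 in both libraries, HBB and PTPRC included. The blood cell marker CD68 and the fibroblast marker COL3A1 lay in loci joined with MPDU1 and MIR3606, so their levels were not read. In a bulk sample, fewer cells that express a gene and less RNA of it per cell cannot be told apart.

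The scale of the libraries matters for differences as small as these. Made equal by the sum over named loci, the PRSS35 values are multiplied by 1.03, and by the upper quartile of the expressed names by 0.955. The sum over all loci, which includes loci with no gene name, was 1.64 times higher in EV, and this scaling moved the median of all expressed names from 0.06 to 0.69 and that of the members from 0.18 to 0.89. Relative to the median of all names, TF, AHSG, ALB, A2M and RBP4 were above it under each of the scalings. AMBP was above 0 under both sum scalings only. It passed the median of all names only with the sum over all loci, at 0.697 against 0.693.

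**Figure D5:**
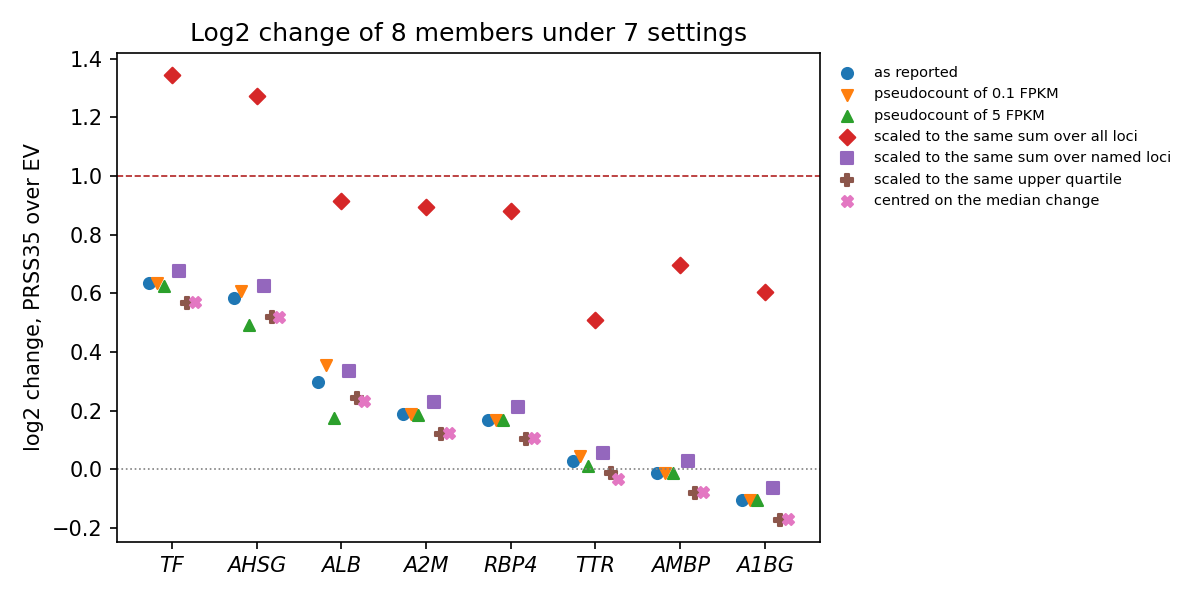
Log2 difference of the 8 expressed members as reported and under 6 other settings of the pseudocount, scaling or centring, 1 symbol per setting; the dotted line marks 0 and the dashed line a log2 difference of 1. The sum over all loci (red diamonds) moves every member upwards, TF to 1.34 and AHSG to 1.27, and in the other settings no member reaches 1.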

How the data were processed

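RNA of PLC cells with the empty vector (EV) or PRSS35 was sequenced on a HiSeq2500, 1 library per group, from non-stranded libraries. The submitters' processing notes name TopHat2 2.1.0 and Cuffdiff 2.2.1, the methods name Cufflinks, and the build is hg19; the annotation release is not given in the sources used here. The authors deposited FPKM per locus, scaled by length and mapped fragments, with lower and upper bounds. Per-gene counts were not used here.

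Loci were matched by name and FPKM summed over loci of the same name. In each library, 1261 loci on alternate haplotypes or unplaced contigs were left out. Log2 differences used a pseudocount of 1 FPKM. Members and lists were chosen with earlier results of these data known. Named genes are PRSS35, the members and, from each list, genes past 2-fold, those with bounds apart and a log2 difference beyond 0.4, and the 2 highest; other partners were added after their values were seen. Joined loci did not count for listed partners. The FPKM worth of 1 fragment was read from loci of 5 to 200 fragments. Alternatives were pseudocounts of 0.1 and 5, scalings, centring, the highest locus per name, a 1.5-fold threshold, other floors and loci named by the member alone; the scalings were run on the partner lists after the data had been seen. Scripts were tested on simulated data and run in Python (3.11.15) with matplotlib (3.10.9), pandas (2.3.3), scipy (1.17.1) and numpy (2.4.6). Strands, exons and residues are from GENCODE on GRCh37.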

Additional observations from a re-analysis of the deposited data

How the results depend on the processing

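The counts of members at 2-fold kept their values under both other pseudocounts and centring, which do not enter the comparison of bounds. Counts at 2-fold and with bounds apart kept theirs with the sum over named loci. The settings of the highest locus per name and of loci named by the member alone could not change them. Each member had 1 locus, under its own name, in both libraries. With the sum over all loci made equal, 2 members (TF and AHSG) were higher at 2-fold, 7 had bounds apart and higher, and the members' median log2 difference was 0.89. Among all expressed names, 87.7% were then apart and higher and 1.80% apart and lower. Under that scaling 1196 of all expressed names were higher and 108 lower at 2-fold, against 192 and 186 as reported, since its construction multiplies every PRSS35 value by 1.64. At a 1.5-fold threshold on the deposited scale 1 member (TF) was higher, and 438 names in all were higher and 360 lower. TF was at 0.57, short of this threshold, with the upper quartile made equal or after centring. With the upper quartile made equal, 2 members (TF and AHSG) kept bounds apart, each PRSS35 value being multiplied by 0.955. Of all expressed names, 17.8% were then apart and higher and 19.4% apart and lower. At a mean FPKM of at least 5, 6 members were left and 4 had bounds apart. All expressed names called at 2-fold were 91 higher and 90 lower with a pseudocount of 5, 260 and 234 with 0.1, and 106 and 95 at a mean FPKM of at least 5. Of the 10 single log2 differences, 7 moved beyond their error with the sum over all loci, where AMBP became 0.70 and A1BG 0.60, and 2 with a pseudocount of 0.1, where FETUB became -0.69 and GC 0.88, both below the floor. TTR turned to -0.01 and -0.03 and AMBP to 0.03 as given above. No paired analysis was possible because each group has 1 library, and no library can be left out. Depth limits FETUB, GC and TTR.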
